A study of Arabidopsis thaliana with 15 samples.

Results

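The expression of 10 genes that move phosphate through the Arabidopsis root, or that report its supply, was followed through 5 groups of RNA-seq libraries. The genes were chosen by locus. They are the plasma membrane transporters PHT1;1 (AT5G43350), PHT1;2 (AT5G43370), PHT1;3 (AT5G43360) and PHT1;4 (AT2G38940), the exporters PHO1 (AT3G23430) and PHO1;H1 (AT1G68740), and the signalling genes SPX1 (AT5G20150), SPX3 (AT2G45130), PHO2 (AT2G33770) and PHR1 (AT4G28610). The count table names genes by locus, and both kinds of name are used. Of the 10 genes, 9 are among the 24618 genes of the table, and AT5G43360 was not analysed here. SPX3 was too low to be tested, so 8 genes entered the tests.

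All libraries came from the wild-type ecotype Col-0 of Arabidopsis thaliana, and the mock, salt, flg22, mannitol control and mannitol groups each had 3 libraries, lettered A, B and C. Seedlings were 6 days old by the RNA-seq methods, although those imaged after salt or flg22 were younger than those imaged after mannitol. Salt was 150 mM and mannitol was 300 mM, and flg22, a peptide of bacterial flagellin, was 250 nM by the labels and 1 µM by the study's methods. The methods describe roots, about 120 pooled in each sample, taken 3 h after treatment, whereas the labels give the tissue as the whole seedling and name collection at 0 and 3 h without tying a sample to either. For imaging in the same study, salt and flg22 were given in liquid medium and mannitol on plates, each with an untreated control of that kind. The reference for salt and flg22 was therefore mock, and that for mannitol was the mannitol control. The mock libraries serve 4 of the 6 comparisons, which are therefore not independent of each other. Nothing in the labels says that the libraries of a group came from separate cultures, so p-values measure the spread between these libraries.

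Plants take up inorganic phosphate across the root epidermis through proton-coupled PHT1 carriers, and PHO1 in the stele releases it towards the xylem for transfer to the shoot. When phosphate runs short, the MYB factor PHR1 binds a short palindrome called P1BS in its target promoters. When phosphate is ample, SPX proteins bound to inositol pyrophosphates hold PHR1 back, and PHO2, a ubiquitin-conjugating enzyme, lowers the amounts of PHO1 and PHT1 proteins. The microRNA miR399 cuts the PHO2 transcript under starvation, which links the shoot's phosphate status to uptake by the root.

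Library totals ran from 6094503 to 13943645 counts, with a median of 10119467, and 3 counts corresponded to between 0.207 and 0.467 CPM, which are counts scaled to a common library size. RD29A, an osmotic stress gene, rose from a mean of 38.7 CPM in mock to 5494 CPM in salt and from 356 CPM in the mannitol control to 4224 CPM in mannitol. FRK1, a flg22 response gene, rose from 7.66 to 23.1 CPM with flg22, and was also called higher with salt (26.5 CPM) and with mannitol (from 1.92 to 13.7 CPM). Markers of the root were present, with 6 stele genes summing to between 224 and 373 CPM. The 6 endodermis genes summed to 333 to 356 CPM in mock and 481 to 615 CPM in salt, where 2 of 5 tested were called higher, and to 230 to 239 CPM in the mannitol control and 241 to 305 CPM with mannitol, where 0 were called. The 8 photosynthesis genes used as shoot markers summed to 116 to 180 CPM in mock, 37.5 to 112 CPM in salt, where 3 of 8 were called lower, and 63.8 to 302 CPM in flg22. In the mannitol experiment they summed to 91.3 to 116 CPM in the control and 91.2 to 117 CPM with mannitol, where 0 of 5 tested were called, and RBCS3B, LHCB1.1 and CA1 averaged 0.333 CPM or less in both groups. The part of the endodermis and shoot markers in the results was not tested. The endodermis marker ESB1 was near 0 in all groups.

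The match between miR399 and PHO2 is shown first because it is the best known control point of this pathway. In the RefSeq annotation of the TAIR10.1 genome 6 of the 7 mature miR399 forms share 1 seed, bases 2 to 8, printed here in capitals.
ath-miR399a chr1:10227165-10227185 (plus): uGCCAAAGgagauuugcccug
ath-miR399b chr1:23345387-23345407 (minus): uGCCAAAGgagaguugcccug
ath-miR399f chr2:14445084-14445104 (plus): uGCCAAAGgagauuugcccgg
PHO2 lies on the minus strand of chromosome 2 (TAIR10.1 chr2:14277558-14283113), and its annotated 5′ UTR holds 5 sites of 21 bases. Capitals mark bases that pair with the closest miR399 form by Watson-Crick rules, and each site has 2 bases that do not.
PHO2 site chr2:14282106-14282126: uAGGGCAAAUCUuCUUUGGCA
PHO2 site chr2:14281973-14281993: uAGGGCAuAUCUCCUUUGGCA
PHO2 site chr2:14281884-14281904: uuGGGCAAAUCUCCUUUGGCA
PHO2 site chr2:14281827-14281847: uCGaGCAAAUCUCCUUUGGCA
PHO2 site chr2:14281770-14281790: uAGaGCAAAUCUCCUUUGGCA
All 5 sites end in the complement of the seed. AT4, a non-coding RNA known to hold miR399 without being cut, carries a site on the plus strand with an unpaired bulge of 3 bases at its middle.
AT4 site chr5:895149-895172: uuGGGCAACUucgaUCCUUUGGCA
MicroRNAs themselves were not measured in these polyadenylated libraries.

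The P1BS palindrome was searched as GNATATNC in the 1000 bases before each annotated gene start. It reads the same on both strands, so 1 search covers both. Of 23447 protein-coding genes of the table, 20.4% hold at least 1 match, and so do AT5G43350, AT5G43370, AT5G43360, SPX1, SPX3 and PHO2. No match lies in this window of AT2G38940, PHO1, AT1G68740 or PHR1. Matches of the uptake transporters, SPX1 and PHO2 are printed on the gene's strand with the motif in capitals, to show which letters differ between neighbouring copies and between roles.
AT5G43350 chr5:17402922-17402959 (minus): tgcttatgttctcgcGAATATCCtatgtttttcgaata
AT5G43350 chr5:17402904-17402941 (minus): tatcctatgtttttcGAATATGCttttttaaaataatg
AT5G43370 chr5:17415114-17415151 (plus): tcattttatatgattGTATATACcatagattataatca
AT5G43370 chr5:17415641-17415678 (plus): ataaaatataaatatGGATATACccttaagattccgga
AT5G43360 chr5:17409116-17409153 (plus): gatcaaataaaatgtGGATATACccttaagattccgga
SPX1 chr5:6801532-6801569 (plus): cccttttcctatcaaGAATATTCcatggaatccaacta
PHO2 chr2:14283617-14283654 (minus): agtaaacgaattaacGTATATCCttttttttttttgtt
The match of AT5G43370 nearer its start, 42 bases away, reads like that of AT5G43360 over the motif and the 15 bases after it, and its other match lies 569 bases away. A match is a run of letters and was not tested as a binding site.

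**Figure D1:**
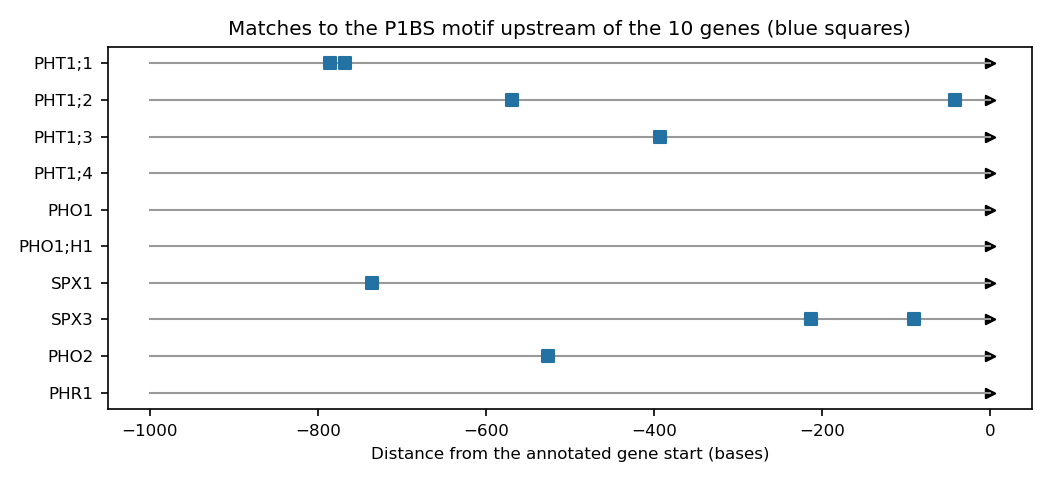
Matches to the P1BS motif (blue squares) in the 1000 bases before the annotated start (arrow) of the 10 genes, with distance in bases on the x axis. The matches of AT5G43350 lie 786 and 768 bases before its start, and AT2G38940, PHO1, AT1G68740 and PHR1 have none.

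With salt, the uptake transporters PHT1;1 and PHT1;2 and the xylem loader PHO1 fell, and no tested gene rose by the same criteria. A gene was called when its adjusted p was under 0.05 (edgeR quasi-likelihood test, Benjamini-Hochberg over all genes tested) and its log2 fold change was at least 1 in size. Of the 8 tested genes, 3 were called lower and 0 higher, against 7.84% and 9.59% of all 18484 genes tested. AT5G43350 and AT5G43370 share transcript sequence, as described below, so their calls may not be independent. By adjusted p alone 5 of the 8 passed, against 41.9% of all genes. The additional genes were PHT1;4, higher by a log2 fold change of 0.99, and PHO2, lower by 0.97. Both lay so close to the fold threshold that the number called was 5 without mock B. At the median the 8 genes had a log2 fold change of -0.46 and all genes tested one of -0.01. With upper-quartile scaling the median of all genes moved to -0.16, and higher genes made up 45.7% of all calls in place of 55.0%.

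With mannitol, the uptake transporters PHT1;1, PHT1;2 and PHT1;4 fell. These 3 of 8 genes were called lower and 0 higher, against 7.46% and 8.98% of 18939 genes. The calls of AT5G43350 and AT5G43370 may again not be independent. By adjusted p alone 7 of the 8 passed, against 52.1% of all genes, and SPX1 was the exception. The number called dropped to 1 without mannitol control B and to 1 without mannitol B, and was 2 in DESeq2. At the median the 8 genes stood at -0.74 and all genes tested at -0.02. Upper-quartile scaling moved the latter to -0.12.

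With flg22, none of the 8 genes was called in either direction in edgeR, against 0.823% of 18230 genes higher and 0.0329% lower, and 0 passed by adjusted p alone, against 3.68% of all genes. At an unadjusted p under 0.05 the count was also 0, and the lowest unadjusted p, from the edgeR quasi-likelihood fit, was 0.145. DESeq2 called 0 as well. The 95% intervals of the 8 log2 fold changes lay between -1.27 and 0.64.

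**Figure D2:**
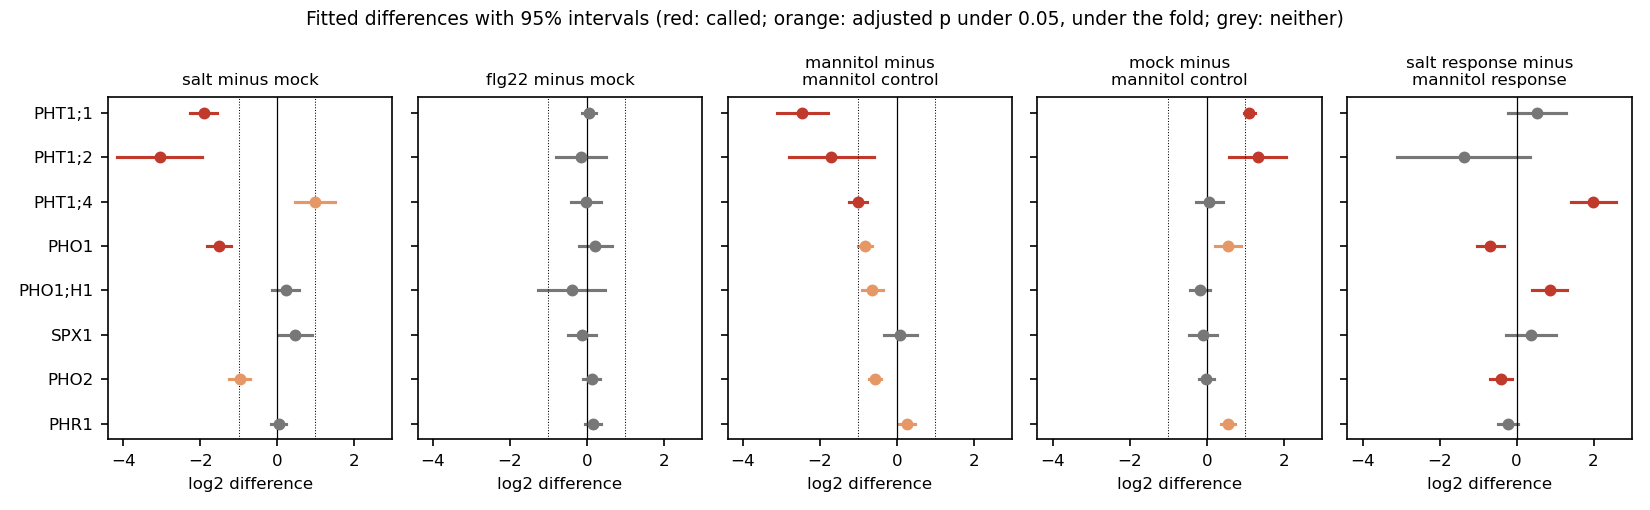
Fitted log2 differences (points) with 95% intervals (lines) of the 8 tested genes in 4 comparisons and for the difference between the salt and mannitol responses, with called genes in red, genes past the adjusted p but under the fold in orange and the rest in grey (in the last panel red marks the adjusted p alone). PHT1;1 lies at -1.91 with salt and -2.45 with mannitol, and PHT1;4 at 0.99 and -1.01.

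PHT1;1, on the minus strand of chromosome 5 (TAIR10.1 chr5:17399769-17402158), encodes the main uptake transporter of the root epidermis and was the most abundant of the 9 genes in mock per length, at 419 CPM per kb of exon. It stood at 821, 856 and 850.2 CPM in mock A, B and C and at 249.8, 241 and 166 CPM in salt A, B and C. Mannitol control libraries held 372, 390.5 and 429 CPM, and mannitol libraries 105, 50.9 and 60.1 CPM. In both experiments every treated library lay below every control, with salt C and mannitol B the lowest. The log2 fold change was -1.91 ± 0.16 (SE, n = 3 against 3, 3.76-fold lower, edgeR adjusted p 2.22e-05) with salt and -2.45 ± 0.27 (5.48-fold lower, edgeR adjusted p 0.000449) with mannitol. In flg22 the libraries held 796, 968 and 918 CPM, which overlap mock, and the log2 fold change was 0.05 (95% interval -0.13 to 0.23, edgeR adjusted p 0.801).

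Mock was already higher than the mannitol control in AT5G43350. Its log2 difference was 1.11 ± 0.07 (n = 3 against 3, edgeR adjusted p 3.05e-07), and no library of the 2 untreated groups overlapped. Among the 5 groups the order of means was flg22 (894 CPM), mock (842 CPM), mannitol control (397 CPM), salt (219 CPM) and mannitol (71.9 CPM). Flg22 and mock overlapped, and every lower step in this order separated the libraries completely. The salt and mannitol libraries thus lay below both untreated groups, and their own controls differed in level.

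AT5G43370 encodes a close copy of AT5G43350 on the plus strand of the same chromosome arm (TAIR10.1 chr5:17415698-17417972), and it was rare. The counts were 16, 29 and 38 in mock A, B and C and 4, 1 and 5 in salt A, B and C. Mannitol control libraries had 14, 26 and 13 counts, and mannitol libraries 7, 2 and 4. No treated library reached the CPM of a control library in either experiment. Summed over libraries, salt held 10 counts against 83 in mock, 8.68-fold lower after scaling (exact 95% Clopper-Pearson interval 4.49 to 18.8), and mannitol 13 against 53, 3.4-fold lower (1.83 to 6.79). These intervals cover counting error only. The edgeR fits gave log2 fold changes of -3.06 ± 0.49 (n = 3 against 3, adjusted p 0.000844) and -1.70 ± 0.51 (adjusted p 0.0126).

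The mannitol call of AT5G43370 was lost without mannitol control B (log2 -1.41, edgeR adjusted p 0.0708) and without mannitol B (log2 -1.37, edgeR adjusted p 0.0539). Between the annotated transcripts, 23.1% of the 150-base windows of AT5G43350 and 25% of those of AT5G43370 are identical. The counting could therefore split or drop such reads, or assign reads of the abundant copy to AT5G43370, which was not tested. The AT5G43370 counts were between 0.303% and 0.522% of the AT5G43350 counts in mock and between 0.0431% and 0.352% in salt. In flg22 they were between 0.305% and 0.355%. In the mannitol experiment the share was 0.232% to 0.459% in the control and 0.358% to 0.680% with mannitol. When both rows were added before the fit, the log2 fold change with salt followed AT5G43350 at -1.91, which is dominated by the abundant copy. In flg22 AT5G43370 had 19, 28 and 28 counts, overlapping mock in CPM (log2 -0.16, edgeR adjusted p 0.836).

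PHT1;4 encodes the other major uptake transporter of phosphate-replete and starved roots (TAIR10.1 chr2:16257157-16260253, plus strand), and it passed in opposite directions with the 2 treatments. It stood at 41.1, 63.5 and 44.4 CPM in mock A, B and C and at 108, 108 and 72.8 CPM in salt A, B and C. In the mannitol experiment it stood at 44.9, 49.8 and 48.8 CPM in the controls and at 27.6, 22.2 and 20.8 CPM in mannitol. Every salt library lay above every mock library, and every mannitol library lay below every control. The log2 fold change was 0.99 ± 0.22 (n = 3 against 3, 1.99-fold, edgeR adjusted p 0.00927) with salt and -1.01 ± 0.11 (2.02-fold lower, edgeR adjusted p 3.3e-06) with mannitol. Both changes passed by adjusted p, while their place relative to the fold threshold moved with single libraries and, for mannitol, with the scaling and the tool. For salt the value was 1.20 without mock B and 1.17 without salt C, and for mannitol it was -0.99 without control B, -0.98 without mannitol B and -0.93 without mannitol C. It was also just under 1 in size with DESeq2 size factors and in the DESeq2 test, at -0.999 in both.

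The untreated groups hardly differed in AT2G38940, with a log2 difference of 0.07 between mock and mannitol control (95% interval -0.28 to 0.42, edgeR adjusted p 0.755). The difference between the salt and mannitol responses was tested in 1 fit of the 12 libraries and was 2.0 ± 0.26 on the log2 scale (edgeR adjusted p 0.000274), the largest in size among the 8 genes. It passed in 19 of 19 alternatives, with values from 1.87 to 2.21. In flg22 AT2G38940 held 44.0, 55.0 and 49.5 CPM, and the log2 fold change was -0.03 (95% interval -0.42 to 0.36, edgeR adjusted p 0.949).

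**Figure D3:**
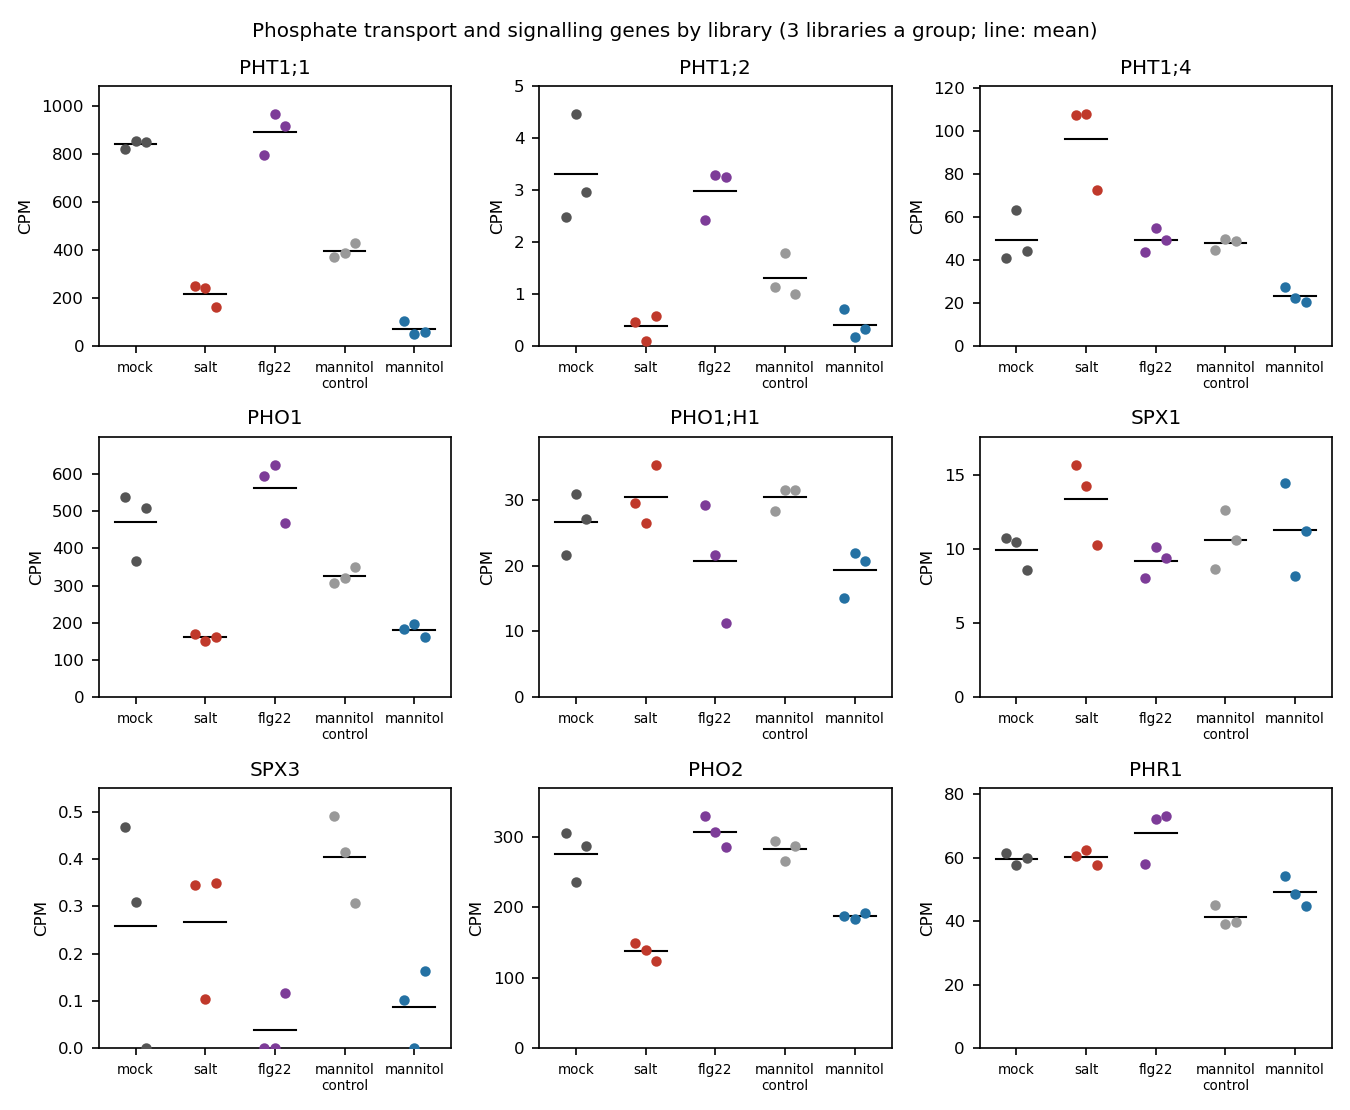
CPM of the 9 measured genes in each of the 15 libraries (points, 3 a group, with the mean as a line, axes from 0). PHT1;4 reaches 108 CPM in salt and falls to 20.8 CPM in mannitol, while AT5G43350 falls in both.

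Root hair markers, of the cells that hold much of the uptake surface, were all in the table (6 of 6). Their summed level was 249 to 308 CPM in mock, 128 to 246 CPM in salt and 219 to 391 CPM in flg22, and it dropped from 188 to 260 CPM in the mannitol control to a narrow 76.0 to 80.4 CPM with mannitol. In salt 1 of 6 was called lower (PRP3), and in mannitol 4 of 6 (PRP3, LRX1, EXPA18 and COBL9). None was at 0 in a whole group. Their part in the PHT1 results was not tested, and in RNA of mixed cell types fewer cells of a type and less RNA per cell cannot be told apart.

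PHO1, the exporter that loads phosphate into the xylem (TAIR10.1 chr3:8387398-8393467, minus strand), stood at 538, 367 and 509 CPM in mock A, B and C and at 171, 151 and 163 CPM in salt A, B and C. Mannitol control libraries held 307, 322 and 350.5 CPM, and mannitol libraries 183, 197 and 163 CPM. Treated and control libraries were fully apart in both experiments, and mock B was well below the other mock libraries. The log2 fold change was -1.51 ± 0.14 (n = 3 against 3, 2.85-fold lower, edgeR adjusted p 3.49e-05) with salt. With mannitol it was -0.83 ± 0.08 (1.78-fold lower, edgeR adjusted p 2.15e-06), which passed the test but not the fold threshold.

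The salt response of PHO1 was the stronger by 0.68 ± 0.17 on the log2 scale (salt minus mannitol -0.68, edgeR adjusted p 0.0106), from a control that was itself higher. Mock exceeded the mannitol control by a log2 difference of 0.55 ± 0.14 (edgeR adjusted p 0.0197), and this adjusted p was 0.0512 to 0.064 without mock A, mock C, or mannitol control A or B. The treated groups ended at 162 ± 10 CPM in salt and 181 ± 16.8 CPM in mannitol (SD, n = 3 each), and their libraries overlapped. With flg22 PHO1 held 595, 625 and 468 CPM, with a log2 fold change of 0.22 (95% interval -0.20 to 0.64, edgeR adjusted p 0.59).

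Markers of the stele, where PHO1 is known to act, were all in the table (6 of 6) and summed to 290.4 to 330.0 CPM in mock and 227 to 284 CPM in salt. They summed to 244 to 249 CPM in the mannitol control, against 224 to 245 CPM with mannitol. Within the list SKOR, a potassium channel of the stele, fell from a mean of 124 to 7.81 CPM with salt and from 11.5 to 1.71 CPM with mannitol, whereas SUC2, a sucrose carrier of phloem companion cells, rose from 54.0 to 114 CPM and from 54.4 to 127 CPM. The markers thus did not move as 1 group, and their part in the PHO1 result was not tested.

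PHO1;H1, the homologue that shares root-to-shoot transfer with PHO1 (TAIR10.1 chr1:25812449-25816983, minus strand), was some way lower, at 21.6, 31.0 and 27.1 CPM in mock and 29.5, 26.4 and 35.3 CPM in salt. These libraries overlapped, and the log2 fold change was 0.22 (95% interval -0.12 to 0.56, edgeR adjusted p 0.271). Mannitol control libraries held 28.3, 31.5 and 31.5 CPM and mannitol libraries 15.1, 22 and 20.7 CPM, with no overlap (log2 -0.64 ± 0.13, n = 3 against 3, edgeR adjusted p 0.000786). The salt response exceeded the mannitol response by 0.86 ± 0.21 (edgeR adjusted p 0.00939), but with all 15 libraries in 1 fit the adjusted p was 0.12. Flg22 libraries were scattered at 29.3, 21.6 and 11.3 CPM, and the log2 fold change of -0.40 had a 95% interval from -1.27 to 0.47 (edgeR adjusted p 0.64).

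PHR1, the MYB factor at the head of the starvation response (TAIR10.1 chr4:14132811-14135292, minus strand), varied least between salt and mock. It stood at 61.3, 57.8 and 60.0 CPM in mock and 60.5, 62.5 and 57.7 CPM in salt (log2 0.04, 95% interval -0.15 to 0.24, edgeR adjusted p 0.713). Its sign turned with upper-quartile scaling and without salt B. Mannitol control libraries held 45.1, 39.2 and 39.8 CPM and mannitol libraries 54.2, 48.6 and 44.7 CPM, with an overlap between control A and mannitol C (log2 0.26 ± 0.09, n = 3 against 3, edgeR adjusted p 0.0304). The test was no longer passed, with adjusted p up to 0.147, under upper-quartile scaling, in DESeq2, or without mannitol control B or C or mannitol A or B. Mock was higher than the mannitol control by 0.55 ± 0.08 (edgeR adjusted p 0.000195), without overlap. In flg22 PHR1 held 58.2, 72.2 and 73.1 CPM (log2 0.15, edgeR adjusted p 0.461). PHR1 overlaps a protein-coding gene on the opposite strand by 59 bases, and in nonstranded libraries reads from there cannot be told apart.

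SPX1, the nuclear SPX protein that inhibits PHR1 and is itself a target of PHR1 (TAIR10.1 chr5:6802282-6803655, plus strand), was low and passed in none of the comparisons with a control. Mock libraries held 10.7, 10.5 and 8.58 CPM and salt libraries 15.7, 14.2 and 10.2 CPM, with salt C inside the range of mock (log2 0.48, 95% interval 0.05 to 0.92, edgeR adjusted p 0.0731). Without salt C the log2 fold change was 0.66 and the adjusted p 0.00867. The mannitol control held 8.68, 12.6 and 10.6 CPM and mannitol 14.4, 8.20 and 11.2 CPM (log2 0.09, 95% interval -0.34 to 0.52, edgeR adjusted p 0.72). Flg22 libraries held 8.05, 10.1 and 9.42 CPM (log2 -0.13, edgeR adjusted p 0.754). All neighbours in the order of the 5 group means overlapped, and these means lay between 9.19 and 13.4 CPM.

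SPX3, an SPX protein known as a strongly starvation-induced repressor of the response (TAIR10.1 chr2:18606410-18607853, plus strand), was at the limit of detection and was not tested. It had 3, 2 and 0 counts in mock A, B and C, and 3, 1 and 3 in salt. Flg22 libraries had 0, 0 and 1, the mannitol control 6, 6 and 4, and mannitol 1, 0 and 2. Only the mannitol control exceeded 3 counts in any library, so a fold was not given, and no difference was detectable at this depth in the salt and flg22 comparisons. Every mannitol control library lay above every mannitol library in CPM, with 16 counts in all against 3, and this difference was not tested.

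PHO2, the ubiquitin-conjugating enzyme with the 5 miR399 sites shown above, was abundant. It stood at 306, 236 and 286 CPM in mock A, B and C and at 149.7, 139 and 124 CPM in salt A, B and C. Mannitol control libraries held 294, 266 and 287 CPM, and mannitol libraries 188, 184 and 192 CPM. Each treatment put all libraries below all controls. The log2 fold change was -0.97 ± 0.12 (n = 3 against 3, 1.96-fold lower, edgeR adjusted p 0.000181) with salt and -0.57 ± 0.07 (1.49-fold lower, edgeR adjusted p 1.66e-05) with mannitol, and neither reached the fold threshold. For salt, 7 of 13 alternatives put it past that threshold, with values down to -1.12.

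Unlike AT5G43350 and PHO1, PHO2 hardly differed between mock and mannitol control (log2 -0.01, 95% interval -0.21 to 0.19, edgeR adjusted p 0.94). The salt response was lower than the mannitol response by 0.40 ± 0.14 (edgeR adjusted p 0.0494), and the adjusted p was above 0.05, up to 0.134, on leaving out any library other than mock B or salt A. Flg22 libraries held 329.5, 307 and 285 CPM (log2 0.12, 95% interval -0.11 to 0.35, edgeR adjusted p 0.608). Across the 15 libraries the log2 CPM of PHO2 and PHO1 had a Pearson r of 0.91, which describes libraries in 5 groups that share treatment and depth.

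In the direct comparison of salt with flg22, 6 of 8 genes passed by adjusted p, against 42.5% of 18432 genes. AT5G43350 (log2 -2.0 ± 0.17, edgeR adjusted p 2.05e-05), AT5G43370 (-2.93 ± 0.45), PHO1 (-1.77 ± 0.12) and PHO2 (-1.12 ± 0.10) were lower in salt. AT2G38940 was higher in salt by 0.99 ± 0.17 (edgeR adjusted p 0.00163). SPX1 was higher by 0.57 ± 0.19 (n = 3 against 3, edgeR adjusted p 0.0353), which was lost in 6 of 13 alternatives, with adjusted p up to 0.126, namely in DESeq2 and without salt A or B or any 1 of the flg22 libraries. AT1G68740 and PHR1 did not pass (edgeR adjusted p 0.167 and 0.326), except that the former had an adjusted p of 0.0241 without flg22 A.

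Between the salt and mannitol responses, 4 of 8 genes differed, against 19.5% of 19363 genes. These were PHT1;4, PHO1, AT1G68740 and PHO2, described above. AT5G43350 had a difference of 0.53 (95% interval -0.22 to 1.28, edgeR adjusted p 0.327), which became 0.89 with an adjusted p of 0.0112 without mannitol A. AT5G43370 had a difference of -1.37 with a wide interval from -3.10 to 0.36 (edgeR adjusted p 0.277), SPX1 of 0.38 (adjusted p 0.437) and PHR1 of -0.22 (adjusted p 0.246).

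In the comparison of the untreated groups, AT5G43350 and AT5G43370 were called higher in mock than in the mannitol control, 2 of 8 against 6.79% of 18927 genes. Of the 8 genes 0 were called lower, against 6.6%. The 2 called genes share transcript sequence, so their calls may not be independent. AT5G43370 differed by 1.32 ± 0.34 on the log2 scale (n = 3 against 3, edgeR adjusted p 0.00827). By adjusted p alone 4 of 8 passed, all higher in mock, against 42.5% of all genes. Of the 8 shoot markers, 5 were called higher in mock, among them RBCS3B (12.3 against 0.333 CPM), LHCB1.1 (6.76 against 0.131 CPM) and CA1 (4.85 against 0.0230 CPM). Not called were RBCS1A (33.7 against 27.0 CPM), RCA (43.5 against 45.3 CPM) and LHCA1 (8.28 against 7.50 CPM). The part of the shoot markers in the difference between the untreated groups was not tested. The growth medium, the handling and any difference in seedling age or time between the 2 experiments cannot be told apart here.

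The wider phosphate pathway list had 78 further genes, 76 of them in the table, including 4 that link flg22 to phosphate and the SUMO ligase SIZ1. Its genes were called higher more often than lower with salt and mannitol, and so were all genes tested. With salt 20 of 65 tested genes were called, 15 higher and 5 lower, against 9.59% and 7.84% of all genes. The list had its median at 0.24 on the log2 scale. With mannitol 16 of 65 were called, 11 higher and 5 lower, against 8.98% and 7.46% of all genes, and the median was 0.23. With flg22 1 of 65 was called, the flg22 receptor FLS2, against 0.823% of all genes higher and 0.0329% lower. The median was 0.06. The medians of all genes are those given above. The lists and the parts of them given below were chosen with earlier results of these data known, so counts and medians over them describe the listed genes only.

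Among genes that free or scavenge phosphate, PAP17, PLDZ2 and PS2 were called higher with both salt and mannitol. Of 18 starvation output genes, 15 were tested in each comparison of a treatment with its control. With salt 5 were called higher and 0 lower, against 9.59% and 7.84% of all genes. RNS1, a secreted ribonuclease, stood at 2.49, 1.54 and 0.780 CPM in mock and 156.5, 175 and 127 CPM in salt (log2 6.76 ± 0.30, n = 3 against 3, edgeR adjusted p 2.19e-06). PAP17, a purple acid phosphatase, rose from 3.58, 6.32 and 2.50 CPM to 106, 90.5 and 72.7 CPM (log2 4.56 ± 0.31, edgeR adjusted p 3.4e-05). The remaining genes, named after their values were seen, were PAP10, PLDZ2 and PS2. With mannitol 4 were called higher and 1 lower, against 8.98% and 7.46% of all genes. PAP17 rose from between 17.6 and 18 CPM to between 159 and 191 CPM (log2 3.33 ± 0.09, edgeR adjusted p 1.1e-11), and the phosphatase PS2 from between 6.30 and 7.89 CPM to between 48.3 and 53.4 CPM (log2 2.82 ± 0.11, edgeR adjusted p 2.05e-10). PLDZ2 and PEPC1 also rose and MGD2 fell, all 3 named after their values were seen.

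In the 1000 bases upstream, PS2 and PEPC1 each have 2 matches to P1BS, PLDZ2 has 4 and PAP17 has 0. AT4, the miR399 decoy shown above, averaged 32.0 CPM in mock and 38.1 CPM in salt. With mannitol its mean was 38.7 CPM, against 33.4 CPM in the matching control, and it passed in neither comparison (edgeR adjusted p 0.0799 and 0.189). IPS1, a related decoy, had 1 to 8 counts in each library.

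Of 7 tested homologues of PHO1, 4 were called with salt, 2 higher and 2 lower, against 9.59% and 7.84% of all genes, and 3 did not pass. PHO1;H10 stood at 1 to 5 counts in mock, 8 in all, and 873 in salt, a scaled ratio of 104 (exact 95% interval 52.8 to 243, counting error only). PHO1;H7 rose from between 1.72 and 3.54 CPM to between 24.2 and 28.4 CPM (log2 3.52 ± 0.22, edgeR adjusted p 2.88e-06). PHO1;H2 (AT2G03260) fell from between 11.2 and 14.6 CPM to between 1.63 and 3.01 CPM (log2 -2.50 ± 0.25, edgeR adjusted p 4.35e-05), and PHO1;H8 (AT1G35350) from between 10.9 and 14.3 CPM to between 5.53 and 6.02 CPM (log2 -1.12 ± 0.17, edgeR adjusted p 0.00051). With mannitol PHO1;H7 (log2 2.84 ± 0.12) and PHO1;H10 (log2 2.81 ± 0.12) were called higher and AT1G35350 lower, whereas AT2G03260 was already low in the mannitol control, at 1.99 to 2.46 CPM, and stood at 1.55 to 2.76 CPM with mannitol. The controls of PHO1;H10 differed in level, with means of 0.285 CPM in mock and 6.43 CPM in the mannitol control. Its treated means were 32.3 CPM in salt and 44.7 CPM in mannitol.

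Of the transcription factors that act on phosphate genes, 2 of 6 were called higher with salt (WRKY6 and ZAT6) and 1 lower (HRS1). With mannitol 4 of 7 were called higher (WRKY6, WRKY45, WRKY75 and ZAT6) and 1 lower (WRKY42). Of the organelle and vacuole transporters 4 of 14 were called higher and 0 lower with salt, and 1 higher and 2 lower with mannitol. Of all genes tested, 9.59% were called higher and 7.84% lower with salt, and 8.98% and 7.46% with mannitol. WRKY6, WRKY45 and ZAT6 were named after their values were seen. NLA, a ubiquitin ligase that acts with PHO2 on PHT1 proteins, fell with salt from 28.5, 18.6 and 31.7 CPM to 12.8, 13.6 and 11.3 CPM (log2 -1.04 ± 0.19, n = 3 against 3, edgeR adjusted p 0.00226). Its value fell short of the fold threshold without mock A, mock C or salt C, with values from -0.99 to -0.91. With mannitol NLA was higher, at 21.4, 13.6 and 13.8 CPM against 10.3, 8.83 and 8.04 CPM in the control (log2 0.86 ± 0.18, edgeR adjusted p 0.00147), without overlap and under the fold threshold. HRS1, a GARP factor of nitrate and phosphate signalling, fell from between 93.2 and 133 CPM to between 24.2 and 33.7 CPM (log2 -1.91 ± 0.17, edgeR adjusted p 3.16e-05). The fifth gene called lower with salt was ALS3, named after its values were seen. WRKY42, a factor known to act on PHO1 and AT5G43350, fell with mannitol from between 10.2 and 14.1 CPM to between 3.83 and 4.88 CPM (log2 -1.45 ± 0.18, edgeR adjusted p 1.7e-05). The others called lower with mannitol, MGD2, VPE2, AT1G35350 and PHT3;2, were named after their values were seen.

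**Figure D4:**
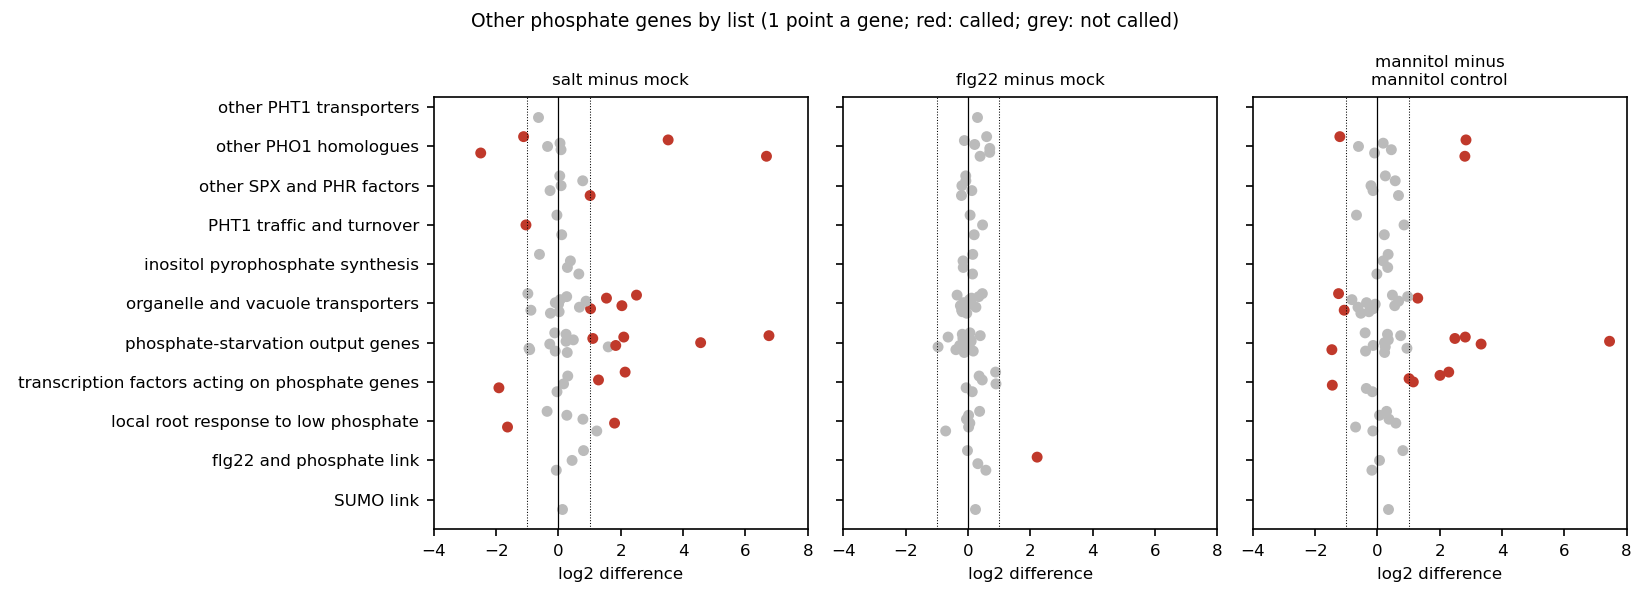
Fitted log2 differences of the other tested phosphate genes, grouped by list, for salt, flg22 and mannitol (1 point a gene, red where called, dotted lines at 1 and -1). The points farthest right with salt are RNS1 (6.76) and PHO1;H10, and the only red point with flg22 is FLS2 (2.22).

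Between the untreated groups 19 of 67 tested genes of the wider pathway were called, with 7 higher and 12 lower in mock, against 6.79% and 6.6% of all genes tested. Higher in mock were HRS1 (log2 2.58 ± 0.16, n = 3 against 3, edgeR adjusted p 1.06e-05), AT2G03260 (2.50 ± 0.19), NLA (1.58 ± 0.19) and WRKY75, a factor of the starvation response (1.19 ± 0.17). Lower in mock were RNS1 (-4.57 ± 0.41, edgeR adjusted p 0.000235), WRKY42 (-3.79 ± 0.29), PAP17 (-2.18 ± 0.25) and VPE1, a vacuolar phosphate exporter (-2.14 ± 0.53, edgeR adjusted p 0.0326). VPE1 was lost in 5 of 13 alternatives, namely with the replicate block (adjusted p 0.136) and without mock A or mannitol control A, B or C (adjusted p up to 0.107).

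**Figure D5:**
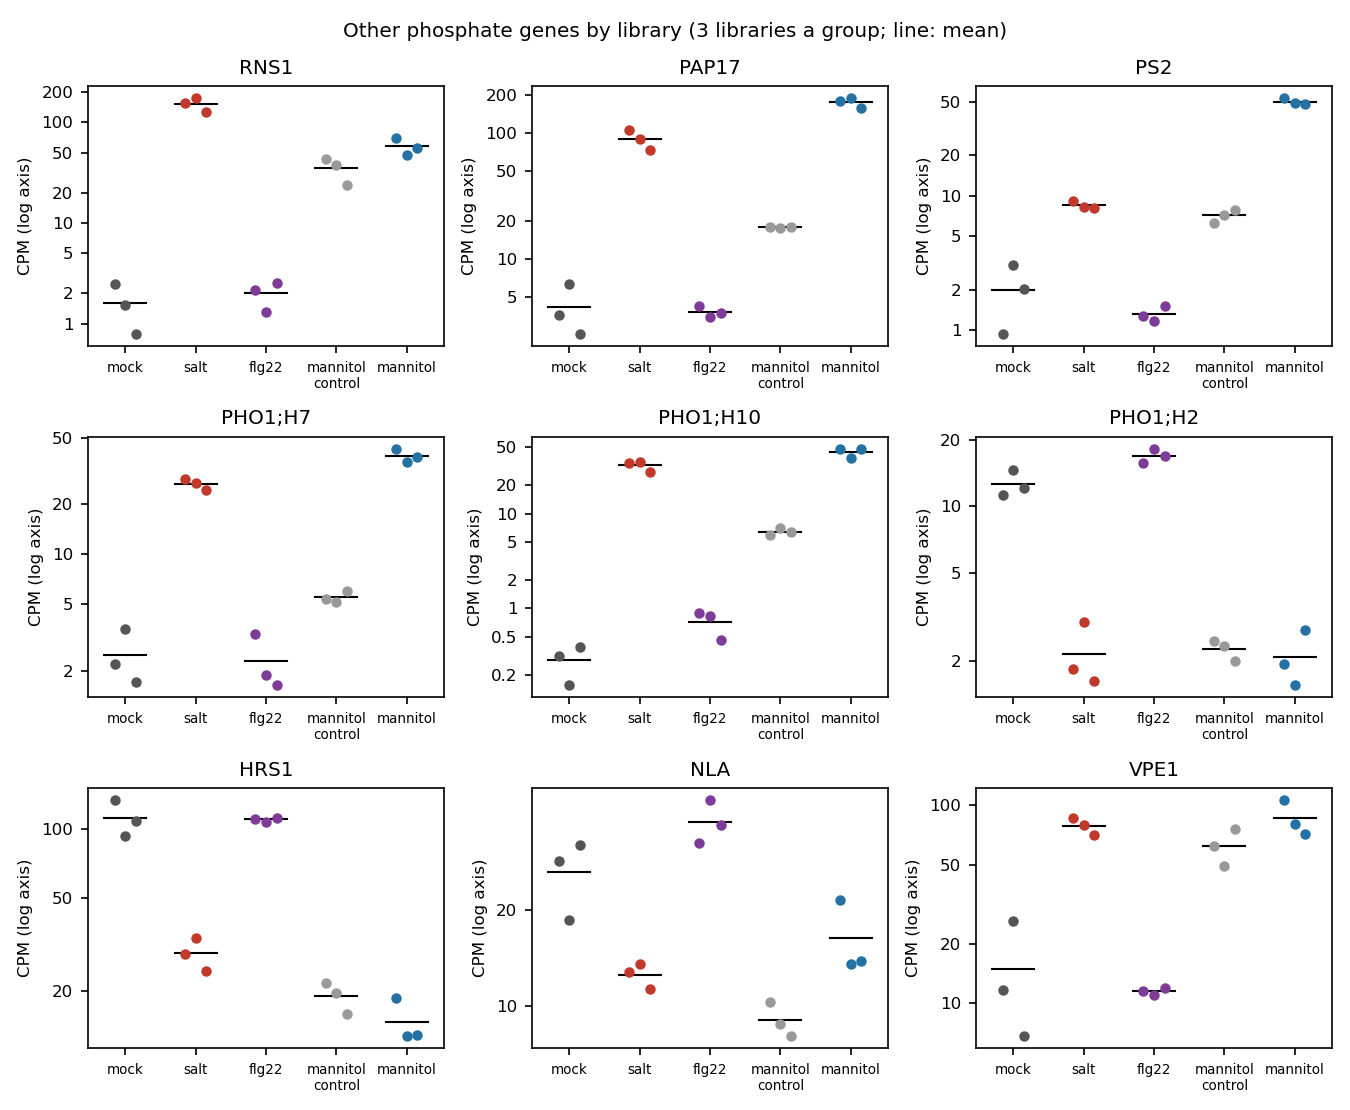
CPM on a log axis of 9 other phosphate genes in each of the 15 libraries (points, 3 a group, with the mean as a line). RNS1 lies between 0.780 and 2.49 CPM in mock, between 127 and 175 CPM after salt, and between 23.8 and 42.8 CPM in the mannitol control.

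For the immune link, FLS2, the receptor kinase of flg22, was called higher with flg22, from 1.40, 0.924 and 2.42 CPM in mock to 6.01, 8.81 and 9.77 CPM (log2 2.22 ± 0.33, n = 3 against 3, edgeR adjusted p 0.00796). Without flg22 B its adjusted p was 0.0683, and without flg22 C it was 0.0589. FLS2 also differed between the untreated groups, higher in mock by a log2 difference of 2.59. It had only 4, 5 and 2 counts in mannitol control A, B and C. BIK1, a kinase known to phosphorylate AT2G38940 after flg22, stood at 42.2, 44.1 and 42.0 CPM in mock and 55.9, 74.7 and 64.9 CPM in flg22 (log2 0.58 ± 0.11, edgeR adjusted p 0.0202), which passed the test but not the fold threshold. Its adjusted p was 0.0637 to 0.107 without mock A or C or without flg22 B or C, 0.0652 with the replicate block and 0.0794 with all 15 libraries in 1 fit. BIK1 did not pass with salt or mannitol (edgeR adjusted p 0.784 and 0.255), but without mannitol A it was lower with mannitol by a log2 fold change of -0.37 (edgeR adjusted p 0.00151). SIZ1, the SUMO ligase known to act on PHR1, did not pass with salt (log2 0.12, adjusted p 0.323) or flg22 (log2 0.23, adjusted p 0.144), and with mannitol it was higher by 0.34 ± 0.07 (113 to 121 CPM against 90.6 to 94.9 CPM, edgeR adjusted p 0.00116).

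AT5G43350 had the widest range of group means of the 9 genes, 3.70 on the log2 scale. Among 15402 genes with a mean of at least 5 CPM, the 5 whose log2 CPM followed it most closely over the 15 libraries were AT3G45410, AT1G13510, LBD38, AT5G63410 and AT2G28960, with Pearson r from 0.98 to 0.99. The 15 points fall in 5 groups and share library and depth, so these values are a description.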

How the data were processed

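RNA of 15 samples in 5 groups of 3 was sequenced from nonstranded polyadenylated libraries. The samples were roots by the methods and whole seedlings by the labels. The deposited values are raw counts of reads per gene. By their methods, the authors trimmed reads with Trimmomatic, mapped them to Araport11, removed duplicates with Picard and counted with HTSeq, in versions not given in the sources used here. Removing duplicates lowers the counts of abundant genes, and the handling of reads shared by AT5G43350 and AT5G43370 is not given in the sources used here. All 15 columns were used and 0 were left unused. The columns of the mannitol control bear another name than the sample titles and were assigned as the remaining untreated group.

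The libraries of a comparison were fitted in edgeR 4.0.16 under R 4.3.3 by the robust quasi-likelihood method. Scaling was by TMM, low genes were removed by filterByExpr at a minimum count of 10, and p-values were adjusted by Benjamini-Hochberg over all genes tested. The fits were tested on simulated counts. Levels are CPM after TMM scaling over the 15 libraries, and CPM per kb divides by RefSeq exon length. Alternatives were other scalings, other count filters, DESeq2 1.42.0, a block for the replicate letter, a joint fit of every library, PHT1 copies summed, other thresholds and each library left out in turn. The genes studied and the wider lists were chosen with earlier results of these data known. By a rule, at most 4 called genes of the wider lists that rose most and 4 that fell most are named in each comparison, if their mean reached 5 CPM and the groups did not overlap, together with BIK1, FLS2 and SIZ1. Other called genes of these lists were named outside this rule, after their values were seen. Sequences were read from the RefSeq TAIR10.1 assembly.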

Additional observations from a re-analysis of the deposited data

Results flagged for a closer look

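By a test of the difference itself (edgeR interaction term, adjusted p under 0.05), 4 of 8 tested genes responded differently to salt and mannitol. The share of all 19363 genes tested was 19.5%. The differences, salt minus mannitol on the log2 scale, were 2.0 for AT2G38940 (PHT1;4), -0.68 for PHO1, 0.86 for AT1G68740 (PHO1;H1) and -0.40 for PHO2. The call of PHO2 was lost in 10 of 19 alternatives. That of AT1G68740 was lost in 1 of 19, with all 15 libraries in 1 fit (edgeR adjusted p 0.12). AT2G38940 passed against its control in both treatments and in opposite directions, with all 3 salt libraries above mock and all 3 mannitol libraries below their control. The fitted values of AT1G68740 also had opposite signs, 0.22 with salt and -0.64 with mannitol, of which the salt value did not pass (edgeR adjusted p 0.271). Groups of 3 are too small for a formal test of single outlying libraries. Between pairs of libraries, a chi-square per degree of freedom over genes was 8.23 and 11.5 with mock B, and 3.76 for mock A with C. It was 11.8 and 9.26 with salt C, and 2.87 for salt A with B. Mannitol A gave 8.21 and 9.38, against 3.88 for mannitol B with C. Flg22 A gave 6.56 and 6.2, against 3.405 for flg22 B with C. What sets the experiments apart, medium and handling included, cannot be told apart from the difference between salt and mannitol.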

How the results depend on the processing

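Over 676 alternative values of the log2 differences of the 8 tested genes, 625 kept their direction and side of the threshold, 24 lost a call, 11 gained one and 16 changed sign. Without a fold threshold the phosphate genes called were 5 of 8 for salt, 7 of 8 for mannitol and 4 of 8 for mock against mannitol control. Those of the wider pathway were 31 of 65, 44 of 65 and 39 of 67, and 6 of 65 for flg22. The shares of all genes tested were 41.9% for salt, 52.1% for mannitol, 42.5% for mock against mannitol control and 3.68% for flg22. With at least 10 counts in every library 0 wider genes were called with flg22. Upper-quartile scaling turned salt PHR1 to -0.11, salt SIZ1 to -0.029 and mannitol SPX1 to -0.00722, and summing the PHT1 copies turned flg22 AT5G43370 to 0.051. Leaving out 1 library at a time gave 3 to 5 phosphate genes called with salt, 1 to 3 with mannitol and 0 to 2 wider genes with flg22. Signs turned within these ranges: salt PHR1 -0.016 to 0.092 and BIK1 -0.21 to 0.13, flg22 AT5G43350 -0.0082 to 0.127, AT5G43370 -0.30 to 0.080 and AT2G38940 -0.14 to 0.17, mannitol SPX1 -0.12 to 0.27, and mock against mannitol control AT2G38940 -0.13 to 0.18, SPX1 -0.22 to 0.046 and PHO2 -0.088 to 0.088. The cause of these turns was not tested.

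Same-lettered libraries did not deviate together (correlations from -0.233 to 0.0964), so the letters were not taken as pairs. With the replicate block the numbers of the 8 genes called stayed 3 with salt, 0 with flg22, 3 with mannitol and 2 between the untreated groups, while the calls over all genes with flg22 went from 156 to 71, of which 69 were shared. At the low end, depth limits what can be said of SPX3 and AT5G43370.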
